A study of Arabidopsis thaliana with 4 samples.

Results

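The 6 Arabidopsis thaliana genes described here, AT5G10040, AT4G24110, AT3G23170, AT5G66985, AT3G10020 and AT1G19530, code for proteins of unknown function that plants are known to make more messenger RNA for when oxygen runs short. They were taken by locus as members of the core low oxygen response, and each was read by 1 probe set that names no other gene. They are 6 of the 13355 genes measured by name. The genes were chosen by their rise from normal to low oxygen on these same arrays, so that rise is given as a description with no test.

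When oxygen is present, plant cells oxidise the amino-terminal cysteine of the group VII ethylene response factors, a family of transcription factors, and this marks them for destruction. When oxygen falls the factors persist and switch on a core set of genes that serve fermentation, sugar use and damping of the response. A sizeable share of that core set codes for plant proteins with no assigned biochemical role, named hypoxia-responsive unknown proteins, and the 6 genes belong to these. The RefSeq gene table lists all of them as protein coding and gives them no name beyond the locus code.

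Roots of Col-0 seedlings aged 3 weeks were profiled on 4 one-colour expression arrays, 2 for normal and 2 for low oxygen, each from a pool of 5 seedlings that shared a dish. Every pool, controls included, spent 24 hours in liquid medium with 3% sucrose and then 5 hours in a foil-covered canister. Low oxygen canisters were flushed for 20 minutes with gas of 0.1% oxygen and sealed, and the controls' canisters were neither flushed nor sealed, so flushing and sealing cannot be told apart from low oxygen itself. Values are log2 expression values made by RMA, a method that corrects background, equalises the arrays and combines the probes of a probe set. One unit is a doubling of signal, and levels of different probe sets are not compared here, since probes differ in how strongly they bind. With 2 arrays per group, the number of arrays limits the precision of every value.

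Of the 22746 probe sets, 15.8% rose and 17.6% fell at low oxygen by limma, at a Benjamini-Hochberg adjusted p under 0.05. Pearson's r across probe sets was 0.996 within each group and 0.945 to 0.949 between arrays of different groups. PYK10, an abundant beta-glucosidase gene of roots, stood at 13.54 at normal oxygen and 12.87 at low oxygen (adjusted p = 0.0049), the only measured gene of 4 root markers. Of 6 shoot markers 1 was measured, RCA, which codes for Rubisco activase, and it rose from 6.95 to 8.26 (adjusted p = 5.9e-04). Of 4 root hair markers, EXPA7 and EXPA18, both expansin genes, were measured and fell (log2 changes -2.50 and -3.53, adjusted p = 5.1e-05 and 1.2e-04). None of 3 endodermis markers was measured. A control probe set for 25S ribosomal RNA read 6.54 and 7.26 at normal oxygen and 12.94 and 12.74 at low oxygen. The part of these shifts in the values of the 6 genes was not tested. In bulk roots, a change in the share of cells that express a gene and a change in the RNA per cell cannot be told apart.

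All 6 genes read higher on both low oxygen arrays than on either normal oxygen array. Over all probe sets, 31.4% had groups that were separated in that direction, and since the genes were chosen for their rise, nothing is read from the comparison. The log2 changes ran from 1.63 to 7.39 with a median of 3.35, against a median of -0.0018 over all probe sets. They fell into 2 kinds by their starting level: AT5G10040, AT4G24110 and AT3G23170 read below 6 on at least 1 normal oxygen array, where signal over background is limited, and AT3G10020, AT5G66985 and AT1G19530 read well above 6 on both.

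AT5G10040 read 4.71 and 5.67 at normal oxygen and 12.31 and 12.84 at low oxygen. Its change of 7.39 (SE 0.31 from limma, n = 2 per group) was rank 1 of 13355 genes, and the smallest difference between any low and any normal oxygen array was 6.64. It was the only one of the 6 genes below 6 on both normal oxygen arrays. These are therefore differences of RMA values against a level that may hold little signal, and neither the size nor the rank is given as a fold of transcript. Its low oxygen arrays also differed by 0.52, the widest low oxygen difference among the 6 genes.

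AT4G24110 read 4.91 and 6.13 at normal oxygen and 9.58 and 9.95 at low oxygen. The groups were separated by at least 3.45, and the change was 4.25 (SE 0.36, n = 2 per group), rank 29 among genes. The difference of 1.22 between its normal oxygen arrays was the widest of the 6 genes and equalled 28.7% of the change.

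AT3G23170 read 5.56 and 6.64 at normal oxygen and 9.26 and 9.30 at low oxygen. Its low oxygen arrays were nearly level, 0.03 apart, while its normal oxygen arrays were 1.09 apart. The change was 3.18 (SE 0.31, n = 2 per group), rank 72, and the normal oxygen difference equalled 34.3% of it, the largest such share among the 6 genes.

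AT3G10020 read 8.85 and 8.26 at normal oxygen and 12.17 and 11.98 at low oxygen. Both groups were higher in replicate 1 than in replicate 2, which held for no other gene of the 6. The change of 3.52 (SE 0.20, n = 2 per group) is an 11.5-fold difference and was rank 49.

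AT5G66985 read 8.63 and 9.44 at normal oxygen and 11.91 and 12.09 at low oxygen. The change of 2.97 (SE 0.25, n = 2 per group), a 7.81-fold difference, was rank 83. Between a single low and a single normal oxygen array the difference was as small as 2.47 and as large as 3.46.

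AT1G19530 read 11.53 and 11.46 at normal oxygen and 13.09 and 13.15 at low oxygen. It was the most even of the 6 genes, with SDs of 0.05 and 0.04 (n = 2). Its change of 1.63 (SE 0.10), a 3.09-fold difference, was the smallest of the 6 and rank 298. The highest value of any probe set on these arrays was 13.99, and how far readings this near the top of the scale understate a change was not tested.

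**Figure D1:**
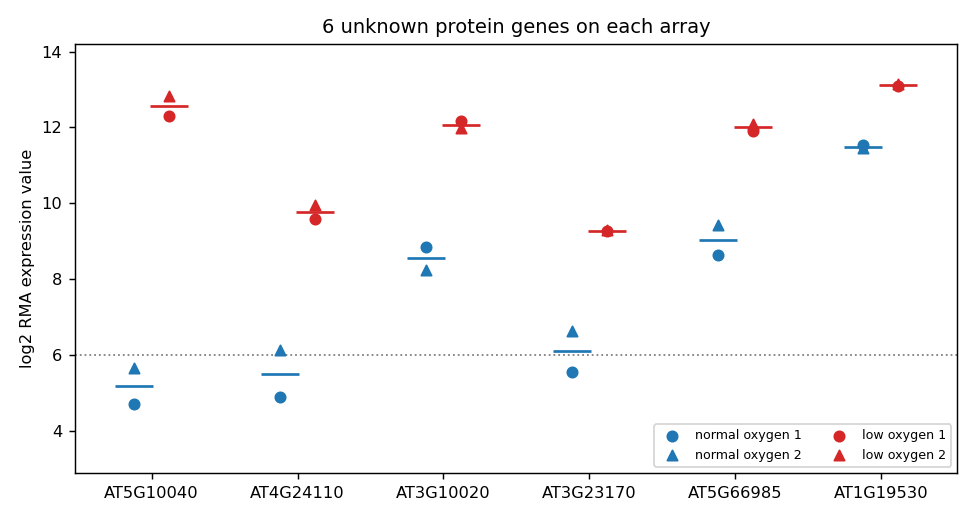
Log2 RMA expression value (vertical axis) of the 6 unknown protein genes (horizontal axis, by falling log2 change) on each of the 4 arrays; circles are replicate 1, triangles replicate 2, short lines group means and the dotted line a level of 6. AT5G10040 spans 4.71 to 12.84, and AT1G19530 moves only from about 11.5 to 13.1 with replicates that nearly coincide.

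For each gene the 4 differences between a low and a normal oxygen array give a range, and ranges overlapped in 6 of the 15 pairs of genes. The range of AT5G10040 lay above those of all the others, and its change exceeded that of AT4G24110, the next in order, by 3.14 RMA log2 units. Both genes averaged below 6 at normal oxygen, so the distance between them rests on readings with limited signal. AT4G24110, AT3G10020, AT3G23170 and AT5G66985 followed with changes of 4.25, 3.52, 3.18 and 2.97, and all 6 pairs among these overlapped. All genes were read on the same arrays, so overlap of separate ranges does not settle their order. No test compared the genes with each other. The range of AT1G19530 lay below theirs, and its change was 1.34 smaller than that of AT5G66985. The changes kept their direction without each array in turn, which the separation of the groups makes sure beforehand, and their values moved most for AT4G24110, between 3.64 and 4.86.

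The difference between replicates of one condition was not itself used to choose the genes. It is not independent of that choice, since the same normal oxygen values enter the rise. The comparison was also added after the values were seen. At normal oxygen, replicate 2 exceeded replicate 1 by 1.22 in AT4G24110, 1.09 in AT3G23170, 0.96 in AT5G10040 and 0.81 in AT5G66985. By absolute size these differences ranked 5, 9, 20 and 61 among the 22746 probe sets. AT3G10020 differed the other way, by -0.60 (rank 269), and AT1G19530 by -0.07 (rank 15882). The median absolute difference was 0.88 for the 6 genes and 0.12 for all probe sets.

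A difference of 0.5 or more at normal oxygen was seen in 5 of the 6 genes and in 2.51% of all probe sets. It was seen in 8.13% of the 1168 others that passed limma's test and were at least 2-fold higher at low oxygen. That test favours probe sets with close replicates, so the 8.13% comes from a set tilted towards small differences. By level, it was reached by 1.24% of probe sets below 6 at normal oxygen, 3.81% of those from 6 to 9 and 2.91% of those at 9 or more. At low oxygen the same 6 genes were closer, with a median absolute difference of 0.18 against 0.12 over all probe sets, and AT5G10040 alone reached 0.5. In each of the 6 genes the arrays differed more at normal than at low oxygen, by the narrowest margin in AT1G19530 (-0.0656 and 0.0618). Over all probe sets the median absolute differences were 0.119 at normal and 0.115 at low oxygen. The share of all probe sets with that order was not counted, so nothing is read from its presence in each gene. No label gives a processing batch or a time of harvest for the normal oxygen pools, and what set them apart was not tested.

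**Figure D2:**
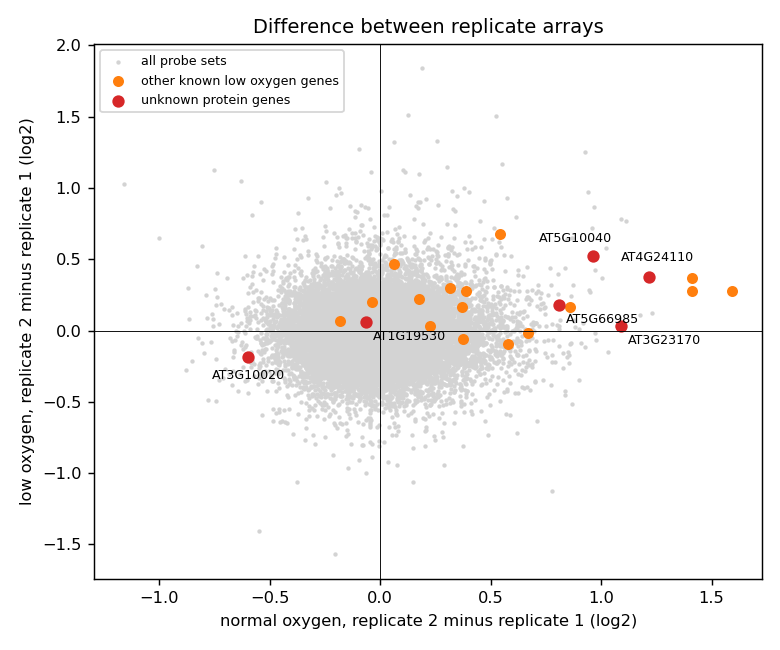
Replicate 2 minus replicate 1 in log2 units at normal oxygen (horizontal axis) and at low oxygen (vertical axis), for all 22746 probe sets (grey), 16 other genes known to be induced by low oxygen (orange) and the 6 unknown protein genes (red). Of the red points 4 lie at 0.81 or more on the horizontal axis, AT3G10020 lies at -0.60 and AT1G19530 near 0.

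A normal oxygen difference of the same sign was also seen in most listed genes of the low oxygen response, though not across rising probe sets in general. Of 42 further genes known to be induced by low oxygen, 16 were measured by name, and replicate 2 was the higher in 14 of these, with a median of 0.38. The widest differences of all 22746 probe sets were those of CML38, a calmodulin-like calcium sensor gene (1.59), AT4G10270 (1.41) and AT4G33560 (1.41), the latter 2 of the wound-responsive protein family. Among the 1168 other probe sets at least 2-fold higher at low oxygen, replicate 2 was the higher in 46.5%, with a median difference of -0.02, and over all probe sets in 45.7%. At low oxygen replicate 2 was the higher in 13 of the 16 listed genes, with a median of 0.21, and in 42.1% of all probe sets.

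Of those 16 genes, 15 rose at low oxygen in limma's test over all probe sets and 1 did not pass, against 15.8% of probe sets higher. The list was written with earlier results of these data known, so its direction is no independent evidence. Their median change was 2.61. The largest rises were those of the rhodanese-domain gene AT2G17850 (5.42, SE 0.26, adjusted p = 2.3e-05) and CML38 (5.37, SE 0.45, adjusted p = 2.1e-04). AT3G10040, whose product is a trihelix factor that restrains the response, rose by 3.44 (adjusted p = 1.3e-04), the RING ubiquitin ligase gene AT5G42200 by 3.37 (adjusted p = 2.3e-05) and AT4G33560 by 3.20 (adjusted p = 0.0012). The smallest rises were 1.90 in AT3G27220 and 2.38 in AT1G26270 (adjusted p = 3.9e-04 and 2.3e-05). AT5G45960 read 4.27 and 4.10 on average at normal and low oxygen (adjusted p = 0.32). Both means lie below 6, where signal over background is limited, so a lack of response cannot be read from them.

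In the joint order of these 16 and the 6 unknown protein genes, AT5G10040 came at rank 1 of 22, and AT4G24110 and AT3G10020 at ranks 4 and 5, after AT2G17850 and CML38. AT3G23170 and AT5G66985 held ranks 9 and 10, just above AT3G03270, a universal stress protein gene with a change of 2.79. AT1G19530 held rank 21, below AT3G27220. PDC2, a pyruvate decarboxylase gene of ethanol fermentation, lay at 2.53, and AT4G17260, the lactate dehydrogenase gene, at 2.41. Of 16 genes of oxygen sensing, only AT3G10040 and AT3G03270 were measured by name. Both are among the 16 above, and both rose.

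**Figure D3:**
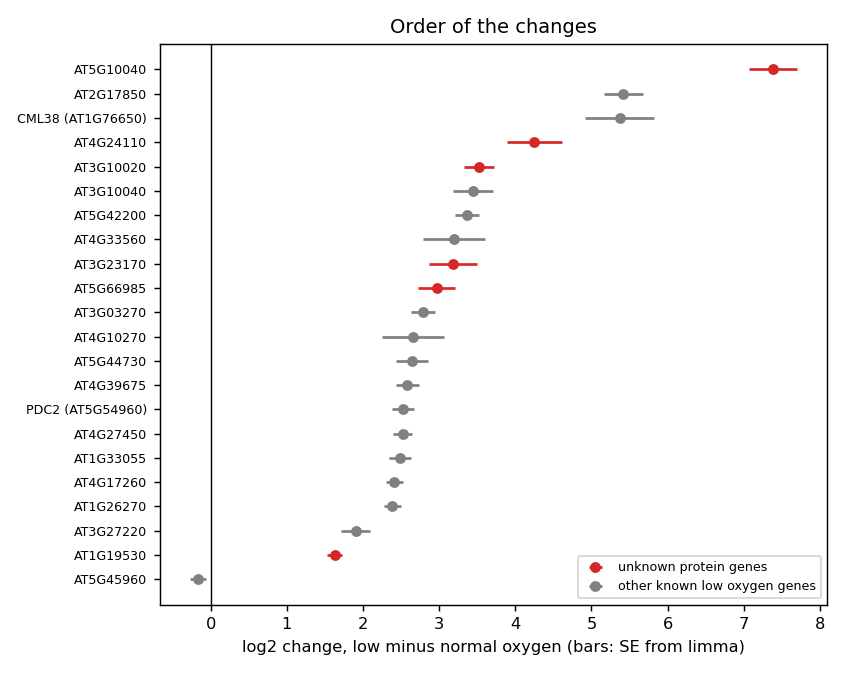
Log2 change, low minus normal oxygen (horizontal axis), with its SE from limma (bars), for the 6 unknown protein genes (red) and 16 other genes known to be induced by low oxygen (grey), in order of the change. The red points run from AT5G10040 at 7.39 at the top to AT1G19530 at 1.63, with only AT5G45960 below it.

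Genes with a profile like each member were sought among the other 13349 genes, by the Euclidean distance over the 4 arrays after each gene was centred on its normal oxygen mean. This measure uses the size of the change and the difference between replicates alike, and no test is attached to it. AT1G19530 had the closest match, AT5G55970, at a distance of 0.02. AT5G55970 read 8.08 and 8.03 at normal oxygen and 9.66 and 9.70 at low oxygen, a change of 1.62, and AT3G16330 came next at 0.07. The nearest genes of AT5G10040 lay farther away. Part of that distance comes from its normal oxygen readings of 4.71 and 5.67, both below 6, where signal is limited. Its nearest gene, AT2G41730, lay at a distance of 0.93 with a change of 7.17, and the next, the mitochondrial small heat shock protein gene AT5G51440, at 1.70.

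AT3G23170 and AT5G66985 shared their nearest gene, AT1G67920, at distances of 0.21 and 0.24. It read 6.31 and 7.12 at normal oxygen and 9.81 and 9.88 at low oxygen. It too was higher in normal oxygen replicate 2, which the distance favours. The next were AT4G33560 for AT3G23170 (0.29) and AT5G26200 for AT5G66985 (0.36). AT4G24110 was nearest to AT2G29500, a cytosolic small heat shock protein gene, at 0.45, and then to AT2G32020 at 0.57.

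The nearest genes of AT3G10020 shared its opposite order at normal oxygen, a feature that the distance itself favours. AT4G31020 (distance 0.26) read 5.50 and 5.16 there, and CCOAMT, a caffeoyl-CoA methyltransferase gene (0.27), read 7.03 and 6.16. At low oxygen AT4G31020 kept that order, at 8.76 and 8.73, and CCOAMT did not, at 10.07 and 10.15. The changes of AT4G31020 and CCOAMT were 3.41 and 3.52, beside 3.52 for AT3G10020. Nearest to the mean profile of the 6 genes were AT1G23710 (0.09), AT3G45730 (0.25) and AT2G44370 (0.39), with changes of 3.81, 3.67 and 3.59.

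**Figure D4:**
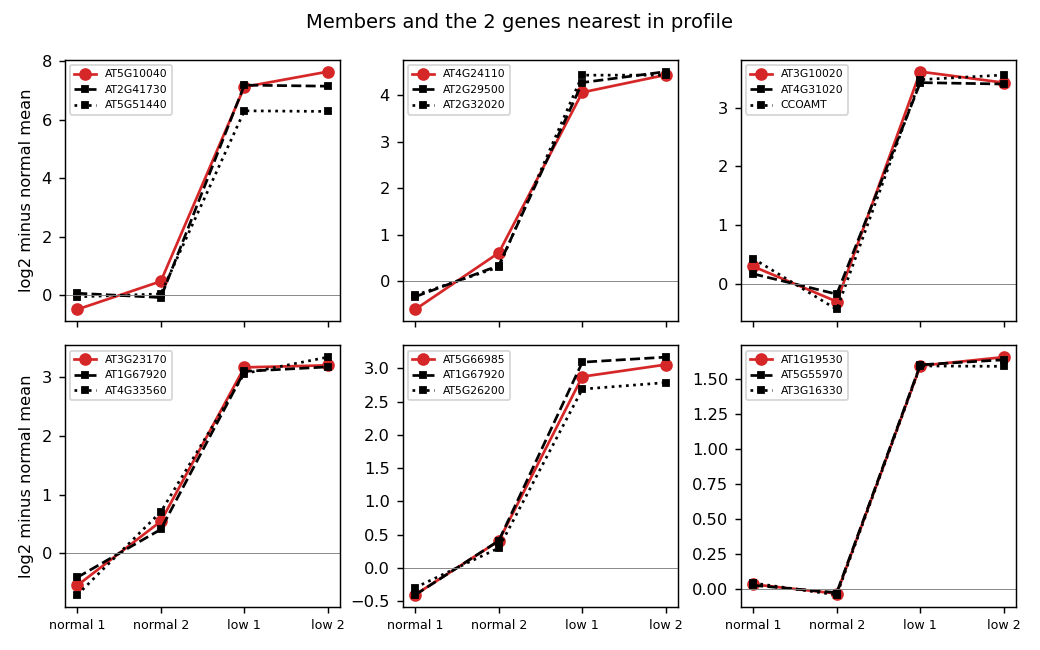
Log2 value minus the gene's normal oxygen mean (vertical axis) on the 4 arrays (horizontal axis) for each of the 6 unknown protein genes (red) and the 2 genes nearest to it in profile (black, dashed and dotted); lines join arrays of one gene and mark no time course, and each panel has its own scale. AT5G55970 lies almost on AT1G19530, while the genes nearest to AT5G10040 do not share the difference between its normal oxygen arrays.

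The chromosome neighbours of the 6 genes were examined with 2 protein-coding loci on each side, in the gene order of assembly TAIR10.1. Of these 24 loci 9 were measured by name, and 3 were higher, 1 lower and 5 not past limma's threshold, with a median log2 change of 0.05. AT3G10020 lies next to AT3G10030, which is followed by AT3G10040. AT3G10030 read 7.02 and 7.12 at normal oxygen and 7.77 and 7.74 at low oxygen, a rise of 0.68 (SE 0.10, adjusted p = 0.0020) between the rises of 3.52 and 3.44 on its flanks. At normal oxygen AT3G10020 was higher in replicate 1 and AT3G10040 in replicate 2, at 7.09 and 7.95.

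Beside AT4G24110, AT4G24100 and AT4G24090 had changes of -0.12 and -0.07 (adjusted p = 0.41 and 0.69). On its other side AT4G24130 fell from 8.16 to 7.35 (log2 change -0.80, SE 0.17, adjusted p = 0.010), which did not pass once low oxygen replicate 2 was left out (-0.74, adjusted p = 0.078, in a range over 11 alternatives that began at 0.00068). Beside AT5G66985, the measured neighbours AT5G66970, AT5G66980 and AT5G67000 all read below 4.3 on average in both groups, with changes of -0.04, 0.18 and 0.05 (adjusted p = 0.89, 0.24 and 0.79). Next to AT1G19530, AT1G19540 rose by 0.64 (SE 0.20, adjusted p = 0.047), and did not pass when low oxygen replicate 2 was left out (0.33, adjusted p = 0.14), nor without normal oxygen replicate 1 (0.60, adjusted p = 0.092) or 2 (0.68, adjusted p = 0.061). Its adjusted p over 11 alternatives began at 0.0063. None of the neighbours of AT5G10040 and AT3G23170 was measured by name.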

How the data were processed

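The deposited values are log2 RMA expression values per probe set. The submitters' processing notes list RMA and limma and give no version or setting of either. Array medians lay between 6.33 and 6.36. RMA equalises the arrays, so its values cannot show a shift common to all transcripts. Of 22746 probe sets left after 64 controls were removed, 13513 had 1 gene in the platform's table, 503 had several and 8730 were not listed. Of the 13513, 13436 matched the RefSeq table of assembly TAIR10.1. Where a gene had several probe sets, that with the highest mean was used.

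Groups were compared with limma 3.58.1 in R 4.3.3 (lmFit, eBayes, default prior, 2-sided, 2 residual and 4.63 prior degrees of freedom). P-values were adjusted over all probe sets. A check on simulated data drew its spread from this same fit, so it cannot show how well the fit suits these arrays. SEs come from this fit. Per the labels, each replicate is its own pool of seedlings.

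The 6 genes and the gene lists were chosen with earlier results of these data known, and the neighbours and the comparison of replicates were added after the values were seen. Genes of the known list are named by the 5 largest rises, the 3 smallest changes and any fall, and PDC2, AT4G17260, AT3G03270 and AT4G10270 as further examples picked once their values had been seen. Per member, the 2 genes nearest in profile are named, and 3 for the mean profile. Planned comparisons of protein relatives and promoter motifs were not run, since no sequences were used here.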

Additional observations from a re-analysis of the deposited data

Results flagged for a closer look

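A probe set that controls for 25S ribosomal RNA and takes no part in the gene comparisons was higher on both low oxygen arrays than on either normal oxygen array, by 5.94 log2 units on average. Its values stand in the report beside the shifts of the marker genes.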

How the results depend on the processing

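The median log2 change of the 6 genes, 3.35, was 3.33 after a further quantile normalization, 3.36 with arrays centred on their medians and 3.14 to 3.55 without each array in turn. All 6 genes passed a filter for a group mean of 6 or more, AT5G10040 and AT4G24110 through their low oxygen mean alone. The list of known low oxygen genes kept 15 rises and 0 falls and the oxygen sensing list 2 rises and 0 falls under every alternative run. Of 446 values for 41 other named genes under alternatives, 438 kept their direction and side of the threshold. In 4 the call ended, for AT4G24130 and AT1G19540, with values in the report. In 4 a small change that had not passed turned sign, for AT4G24090 (-0.16 to 0.0163 without each array), AT5G66970 (-0.17 to 0.10) and AT5G67000 (-0.0027 to 0.10). Among all probe sets tested, there were 3594 higher and 3999 lower. These counts became 2361 and 2701 at an adjusted p under 0.01. At an adjusted p under 0.05 with a fold of 2 or more they became 1174 and 1211. Fits without an array assume that the lone array of a group varies like the other group, so their counts are not given. With the replicate number as a block 3288 were higher and 3651 lower, but no label says that the numbers pair the samples, and the deviations of same-numbered arrays correlated at only 0.02 across probe sets. The block changed no call of a named gene. Not run were the alternatives for protein relatives, promoter windows and probe sets shared with other genes, of which the 6 genes had none. Low signal limits AT5G10040, AT4G24110 and AT3G23170 at normal oxygen.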

Other observations

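Among the 20 widest differences between the normal oxygen arrays, 18 were higher in replicate 2. They included 3 of the 6 unknown protein genes and 3 other genes known to be induced by low oxygen. Others among the 20 hardly differed between the oxygen groups, such as AT3G10930, 1.17 higher in replicate 2 with a log2 change of 0.08 at low oxygen, and AT3G48740, with -0.999 and 0.02.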
